A study of Silurus asotus with 15 samples.

Results

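The antigen receptor and MHC models of the Amur catfish (Silurus asotus) are the gene models whose annotated protein name contains a term for the major histocompatibility complex (MHC), a T-cell receptor, or an immunoglobulin lambda, kappa, heavy or light chain. The rule found 207 of the 25089 gene models with an expression value. They comprised 132 immunoglobulin light chain models, 21 heavy chain models, 11 T-cell receptor beta models, 32 MHC class I models, 5 MHC class II chain models, 1 invariant chain and 5 others. The 5 others were the class II transactivator, 2 models named MHC class II regulatory factor RFX1 and 2 named minor histocompatibility antigen H13. The word "model" is used throughout, because one gene can be split over several models.

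The data are poly(A) RNA-seq libraries from adult fish taken from the bottom of their water body, untreated, with 1 library for each of 15 tissues. The tissues were the spleen, kidney and head kidney, testis and ovary, heart and muscle, liver and pancreas, brain and pituitary, gill, skin, and the maxillary and mandibular barbels. The labels give neither the sex nor the number of the fish. Values are FPKM (fragments per kilobase of model, scaled to the fragments mapped in the library), a level per length, and with 1 library per tissue no difference has a replicate check and no p-value was computed.

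An adaptive immune receptor is built from chains that carry a variable domain, which binds antigen, and a constant domain, which is shared by receptors of a kind. Immunoglobulins are made by B cells and plasma cells from 2 heavy and 2 light chains, and the alpha-beta T-cell receptor recognises peptides held by MHC molecules. MHC class I presents peptides from inside the cell and is made by most nucleated cells. MHC class II presents peptides taken up from outside, mainly on dendritic cells, macrophages and B cells, and needs the invariant chain to reach its loading compartment. Teleosts lack bone marrow and lymph nodes of the mammalian kind, and their kidney, in particular the head kidney, together with the spleen are the main sites where blood and lymphoid cells form and gather.

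Before the members, the libraries were checked. A marker of the labelled tissue was highest or second highest in its own library for all 13 tissues other than brain and gill, for example the spleen transcription factor TLX1 with 43.1 FPKM in spleen. The markers of liver, pancreas, pituitary, ovary and muscle were the highest models of those libraries, so their checks are weak. The head kidney marker StAR was higher in testis (142 against 76.9 FPKM). Calretinin served for both barbels (246 FPKM in maxillary, 260 in mandibular) and does not tell them apart. The 2 remaining libraries went against their labels. SNAP25, a neuronal protein of vesicle fusion, reached 1659 FPKM in the library labelled gill but 0.0938 in that labelled brain. Rhcg, an ammonia channel of gill epithelium, reached 232 FPKM in the library labelled brain and stood at 0 in that labelled gill. They are called the brain-labelled and the gill-labelled library throughout, and directions drawn from them are those of the library. The smallest common step between low values, taken per kilobase of coding sequence, was 0.0200 to 0.0224 in 11 libraries, but 0.0871 to 0.132 in muscle, skin and both barbels. Read as the worth of 1 fragment, this puts the latter 4 libraries 4.37 to 6.61 times below the deepest. They are called the shallower libraries below, and values near 0 are coarser in them. This is an estimate from the values, since no depth is given. No interval or floor was derived from it.

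Most of the 207 models were short and many were fragments. Their median coding length was 372 bases, against 1158 for all annotated loci, and the range was 183 to 4542 bases. In all, 70 models (33.8%, against 8.84% of all loci) stood alone on their scaffold, and 111 (53.6%, against 31.7%) were marked incomplete at both ends. By the domains recorded in the annotation, the light chain models held 79 with a variable domain only, 48 with a constant domain only, 4 with both and 1 with neither. Of the heavy chain models 20 had a variable domain only and 1 had both, and of the T-cell receptor beta models 10 had a variable domain only and 1 had both. The sources used here do not say how reads matching several near-identical models were shared among them, so the level of any single light chain or class I model is uncertain and class sums are given beside it. Just outside the naming rule lay 2 models called immunoglobulin heavy variable 3-30, with at most 4.97 FPKM (C0J50_11658, in testis) in any library.

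In all, 191 of the 207 models reached 1 FPKM in at least 1 library, against 85.2% of all gene models. These were all 132 light chain models, 14 of 21 heavy chain, 5 of 11 T-cell receptor, 29 of 32 class I and all 5 class II chain models, with the invariant chain and the 5 others. The other 16 stayed below 1 FPKM in all 15 libraries. Of the 191 detected models, 152 were highest in spleen, where 8.05% of all detected genes peak. Testis followed with 12 (10% of all detected genes; 6 with values rescaled by median ratios, level with the brain-labelled library under that scaling), the brain-labelled library with 9 (8.45%), the gill-labelled library with 5 (17%), pituitary with 4 (3.98%), mandibular barbel with 3 (2.42%) and maxillary barbel with 2 (1.67%). Head kidney (5.56%), ovary (23.5%), muscle (4.07%) and skin (3.73%) had 1 each. No member peaked in kidney (2.02%), heart (4.08%), liver (4.14%) or pancreas (1.31%). The classes differed in this. Spleen was the highest library for 122 of 132 light chain models, 13 of 14 heavy chain models, all 5 detected T-cell receptor models and only 8 of 29 class I models. In bulk tissue, fewer cells of a type and less RNA per cell cannot be told apart, so these levels do not say how many lymphocytes a tissue held.

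**Figure D1:**
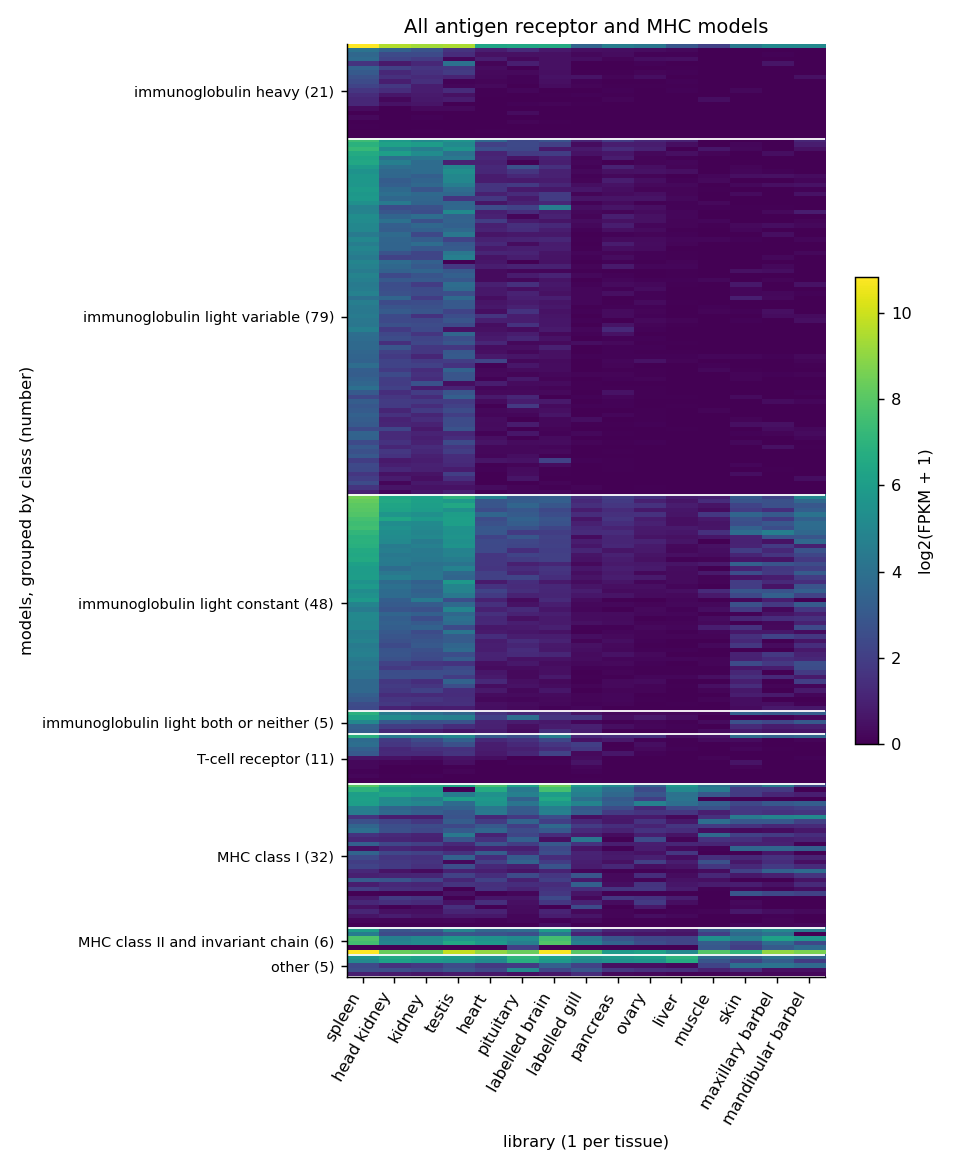
Each row is 1 of the 207 models, grouped by class with the number of models in brackets, each column is 1 library, and the colour is log2(FPKM + 1). Light chain and heavy chain rows are brightest in spleen and then in head kidney, kidney and testis, constant-domain rows stay visible in skin and barbels where variable-domain rows do not, and class I and class II rows are bright in the brain-labelled library as well.

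Among the models named as heavy chains, 1 held most of the summed FPKM. C0J50_17935, the only heavy chain model with both a variable and a constant domain, spans 7 coding exons and 1686 coding bases at positions 2899469 to 2949506 of scaffold178187. It had 1817 FPKM in spleen, 768 in head kidney, 692 in testis, 641 in kidney, 97.9 in the brain-labelled library, 89.6 in pituitary and 80.7 in heart. It had 33.8 in maxillary barbel, 33.0 in mandibular barbel, 23.6 in pancreas, 20.2 in skin, 18.9 in ovary, 10.7 in the gill-labelled library, 6.67 in liver and 3.36 in muscle. Spleen, head kidney, testis and kidney thus stood apart from the next library, and the model was above 3 FPKM in every library. It made up between 85.6% of the summed heavy chain FPKM (gill-labelled library) and 99.1% (skin). The 20 variable-only heavy chain models were low. The highest of them, C0J50_10868, had 16.4 FPKM in spleen, 9.67 in head kidney, 6.10 in kidney and 2.09 in testis, and was listed at 0 in the 4 shallower libraries. C0J50_02704 differed from that order, with 15.5 FPKM in testis, 2.05 in spleen, 1.3 in kidney and 0.652 in head kidney. It was 1 of 2 members that were tissue-enriched, defined as at least 5 FPKM in the highest library and at least 5-fold above the next on the log2(FPKM + 1) scale, a rule that 9.38% of all gene models met. The count of such members was 8 with a pseudocount of 0.1, 4 with median ratios, 1 with a common sum and 0 at 10-fold. On that scale the fold of a low gene is understated.

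In spleen, head kidney, kidney, testis and skin, light chain models had the highest summed FPKM of any class, and in the other 10 libraries they did not. They added up to 6143 FPKM in spleen, 2011 in testis, 1734 in head kidney and 1413 in kidney, and then to 258 in mandibular barbel, 224 in heart, 208 in pituitary, 185 in the brain-labelled library, 159 in skin and 142 in maxillary barbel. Sums of 56.3 in pancreas, 37.8 in the gill-labelled library, 33.2 in ovary, 21.5 in muscle and 16.7 in liver closed the order. Since fragments of one gene can each add to such a sum, the share of all fragments was computed as well. Light chains took 0.590% of the fragments in spleen, 0.180% in testis, 0.146% in head kidney and 0.127% in kidney, and heavy chains 0.794%, 0.291%, 0.294% and 0.264%. By this share light chains were thus below heavy chains in these 4 libraries. In skin they took 0.0266%, below class I (0.0402%) and the invariant chain (0.0293%). The first rank of light chains therefore held for summed FPKM only. Across the 15 libraries the summed light and heavy chain levels rose and fell together (Spearman 0.925, n = 15), a description of libraries that share their tissues of origin. The ratio of the light to the heavy chain summed FPKM was 1.65 (ovary) to 3.24 (spleen) in the 11 deeper libraries. It was 4.13 (maxillary barbel) to 7.83 (skin) in the 4 shallower ones, so the ranges did not overlap.

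**Figure D2:**
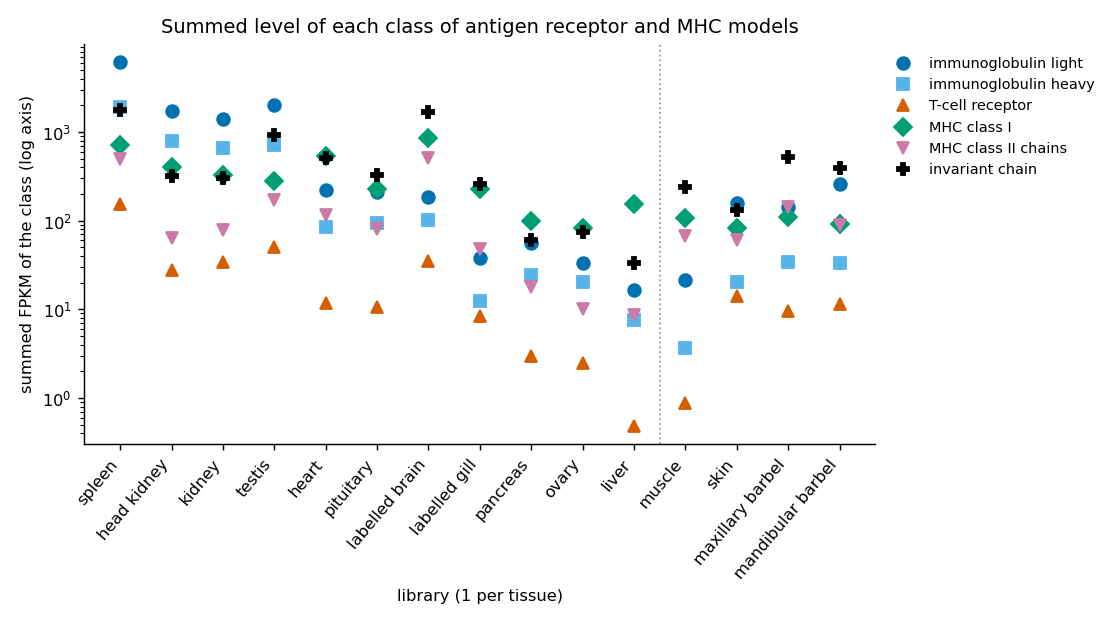
Points give the summed FPKM of each class (log axis) in each library, with the 4 shallower libraries right of the dotted line. Immunoglobulin sums are highest in spleen and lowest in liver and muscle, MHC class I from 859.7 in the brain-labelled library to 82.8 in ovary, and the invariant chain is about as high in the brain-labelled library as in spleen.

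The highest light chain models were constant-domain fragments. C0J50_11631, which has a constant domain only (321 coding bases on scaffold29339, alone there), had 366 FPKM in spleen, 126 in testis, 83.8 in head kidney and 73.2 in kidney. It had 29.6 in mandibular barbel, 26.2 in heart, 8.39 in the brain-labelled library, 7.65 in pituitary, 7.56 in skin, 3.75 in maxillary barbel and 3.10 in pancreas. Ovary (1.98), the gill-labelled library (1.80), muscle (0.969) and liver (0.838) were lowest. The mandibular barbel was thus above heart and the maxillary barbel far below it. C0J50_12321, a second constant-domain fragment (288 coding bases on scaffold41831, also alone), had 119 FPKM in spleen, 42.3 in testis, 32.9 in head kidney, 21.7 in kidney and 11.6 in mandibular barbel. It had 4.32 in heart, 3.92 in pituitary, 3.09 in the brain-labelled library, 1.21 in pancreas, 1.06 in skin, 1.02 in ovary, 0.837 in the gill-labelled library, 0.522 in liver and 0.454 in maxillary barbel, with muscle listed at 0. The next models by level, C0J50_10832 (306 FPKM in spleen), C0J50_15203 (275), C0J50_15560 (256) and C0J50_07819 (237), also held a constant domain only. The highest variable-only model was C0J50_12983, with 173 FPKM in spleen, 54.6 in head kidney and 47.7 in testis. In spleen the top variable-only model held 8.0% of the variable-only sum and the top constant-only model 9.79% of the constant-only sum.

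Most individual light chain models were highest in spleen, by differing margins. Spleen was above head kidney for all 79 variable-only models, by a median of 1.67 on the log2(FPKM + 1) scale (quartiles 1.18 and 2.0), and for all 48 constant-only models, by a median of 1.80 (quartiles 1.66 and 2.04). Between spleen and testis the medians were 1.36 (quartiles 0.60 and 1.91) and 1.54 (1.15 and 2.0), and 72 of 79 variable-only and 46 of 48 constant-only models were higher in spleen. Of the 10 light chain models that did not peak in spleen, 9 peaked in testis, among them the constant-only models C0J50_12161 (54.4 FPKM in testis, 44.4 in spleen) and C0J50_10892 (28.2 and 21.9). The remaining model, C0J50_12210, peaked in the brain-labelled library (3.26 against 2.91 in spleen).

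Of the 4 models that join a variable and a constant domain, 3 lie on scaffold35, where C0J50_01369 and C0J50_01370 are neighbours, and C0J50_03274 lies on scaffold169. The highest, C0J50_01369 (702 coding bases, positions 5645193 to 5647050 of scaffold35), had 115 FPKM in spleen, 20.3 in head kidney, 13.9 in kidney and 10.6 in testis. Its levels in skin (9.35), mandibular barbel (8.59) and maxillary barbel (7.48) were near those in testis, and the other libraries were between 0.124 (muscle) and 2.08 (heart). It was the second of the 2 tissue-enriched members. Its neighbour C0J50_01370 had 32.5 FPKM in spleen, 7.37 in mandibular barbel, 6.85 in head kidney, 5.66 in testis, 5.30 in skin, 5.28 in kidney and 4.0 in maxillary barbel. For both models, skin and the barbels lay far closer to testis and kidney than heart, pituitary or the brain-labelled library did.

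The light chain models were spread over 60 scaffolds, and 41 were alone on theirs. The 5 scaffolds with 5 or more such models held 62 of them and 41.1% of the summed light chain FPKM in spleen. The largest group lay on scaffold178143 (positions 584576 to 694196), with 13 variable-only and 6 constant-only models and a sum of 1099.6 FPKM in spleen. Next by level came scaffold178133 (positions 3197 to 45324), with 6 variable-only and 4 constant-only models and 672 FPKM. On scaffold178171 there were 9 variable-only and 3 constant-only models, on scaffold1750 5 and 5, and on scaffold178256 4 and 7. Variable-only and constant-only models were interspersed along these scaffolds. Of 35 constant-only models that shared a scaffold with a variable-only model, 33 lay on the strand opposite to the nearest one, at a median distance of 593 bases over the 35.

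The balance of variable to constant light chain models set 4 libraries apart. The summed FPKM of the 79 variable-only models over that of the 48 constant-only models was 0.579 in spleen, 0.674 in head kidney, 0.614 in kidney, 0.629 in testis, 0.538 in heart, 0.633 in pituitary, 0.685 in pancreas, 0.602 in ovary, 0.495 in liver, 0.847 in the brain-labelled library and 0.405 in the gill-labelled library. It was 0.143 in muscle, 0.0450 in maxillary barbel, 0.0442 in skin and 0.0345 in mandibular barbel. The 4 shallower libraries were thus all below the 11 deeper ones, and the lowest deeper library was 2.82 times the highest shallower one. In skin, constant-only models summed to 136.5 FPKM and variable-only models to 6.04, whereas heart, with a nearly equal constant-only sum of 140.1, had a variable-only sum of 75.3. Between 48 and 59 of the 79 variable-only models were listed at 0 in the shallower libraries, against 0 to 18 in the deeper ones. For the 48 constant-only models the counts were 0 to 10 and 0 to 6. Of all 25089 gene models, 4988 to 6183 were at 0 in the shallower libraries and 1225 to 4554 in the deeper ones. The variable-only heavy chain models over C0J50_17935 likewise gave 0.00915 in skin, 0.0119 in mandibular barbel and 0.0183 in maxillary barbel, below the 0.0398 (head kidney) to 0.168 (gill-labelled library) of the deeper libraries, but muscle, at 0.0963, lay within that range. Depth moves with this split, since the same 4 libraries have the coarse values near 0, and its part in the ratio was not tested. The sources used here do not say whether these 4 libraries came from a separate batch or other fish. Such a difference could not be told apart from depth. Leaving out the 5 highest models of each kind, or models under 300 coding bases, kept the 2 sets of libraries apart by at least 2.43 times, alternatives added after the values were seen.

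**Figure D3:**
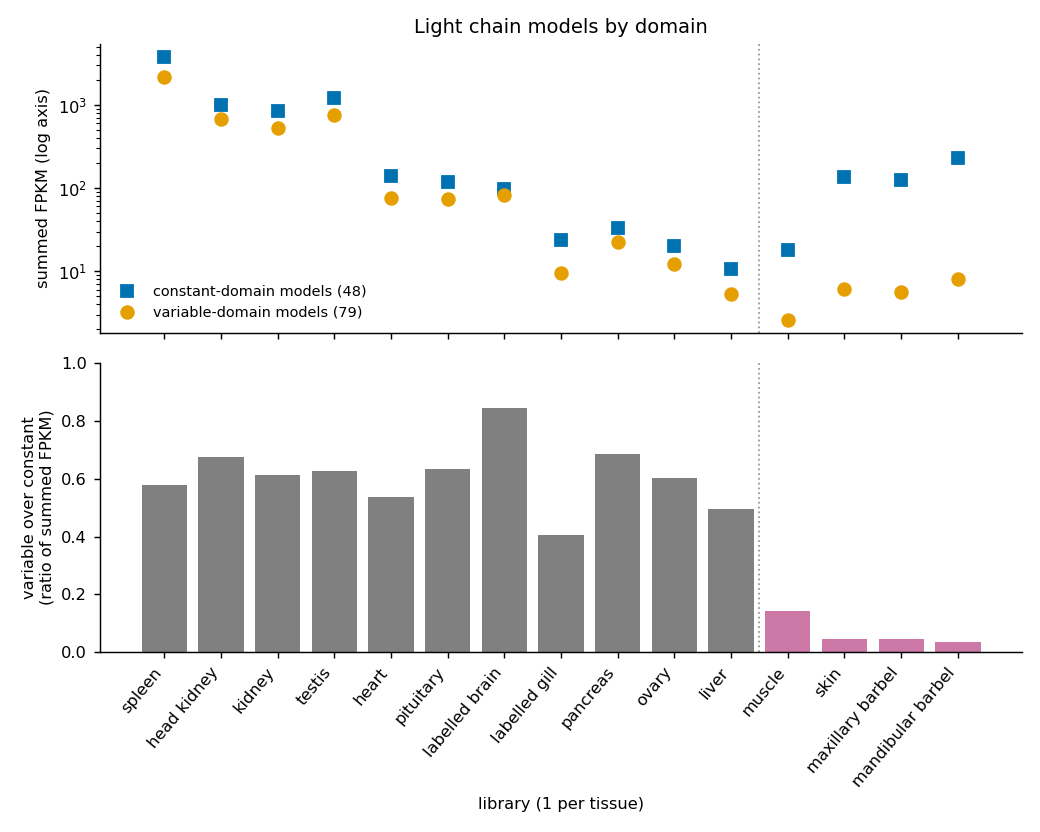
The upper panel gives the summed FPKM (log axis) of the 48 constant-only and 79 variable-only light chain models in each library, and the lower panel their ratio, with the 4 shallower libraries right of the dotted line. The ratio lies between 0.405 and 0.847 in 11 libraries and between 0.0345 and 0.143 in muscle, skin and both barbels.

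T-cell receptor beta transcripts were also highest in spleen. C0J50_10569, the only T-cell receptor model with both domains (744 coding bases, positions 1309729 to 1311957 of scaffold10507), had 112 FPKM in spleen, 31.1 in testis, 23.6 in the brain-labelled library, 22.5 in kidney and 19.4 in head kidney. It had 13 in skin, 11.3 in mandibular barbel, 9.49 in maxillary barbel, 7.68 in heart, 5.01 in pituitary, 1.80 in ovary, 1.63 in pancreas, 1.37 in the gill-labelled library, 0.531 in muscle and 0.327 in liver. Skin and barbels came sixth to eighth here, above heart and pituitary, whereas for the heavy chain they came below both. The other 4 detected T-cell receptor models, C0J50_10566, C0J50_10568, C0J50_10581 and C0J50_10582, are variable-only and lie on the same scaffold. They had 7.15 to 14.0 FPKM in spleen. The last 2 had 3.08 and 2.35 FPKM in the gill-labelled library, where C0J50_10569 had 1.37. The 6 T-cell receptor models elsewhere stayed below 1 FPKM in every library.

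The ratio of heavy chain C0J50_17935 to T-cell receptor C0J50_10569 ordered the libraries differently from either level. It was 39.6 in head kidney, 28.5 in kidney, 22.2 in testis, 20.4 in liver, 17.9 in pituitary, 16.2 in spleen, 14.5 in pancreas, 10.5 in heart and in ovary and 7.81 in the gill-labelled library. It was lowest in muscle (6.32), the brain-labelled library (4.15), maxillary barbel (3.56), mandibular barbel (2.92) and skin (1.55). Skin had about the same heavy chain level as ovary (20.2 and 18.9 FPKM) but 13 against 1.80 FPKM of the T-cell receptor. The ratio in liver and muscle rests on T-cell receptor values below 1 FPKM.

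**Figure D4:**
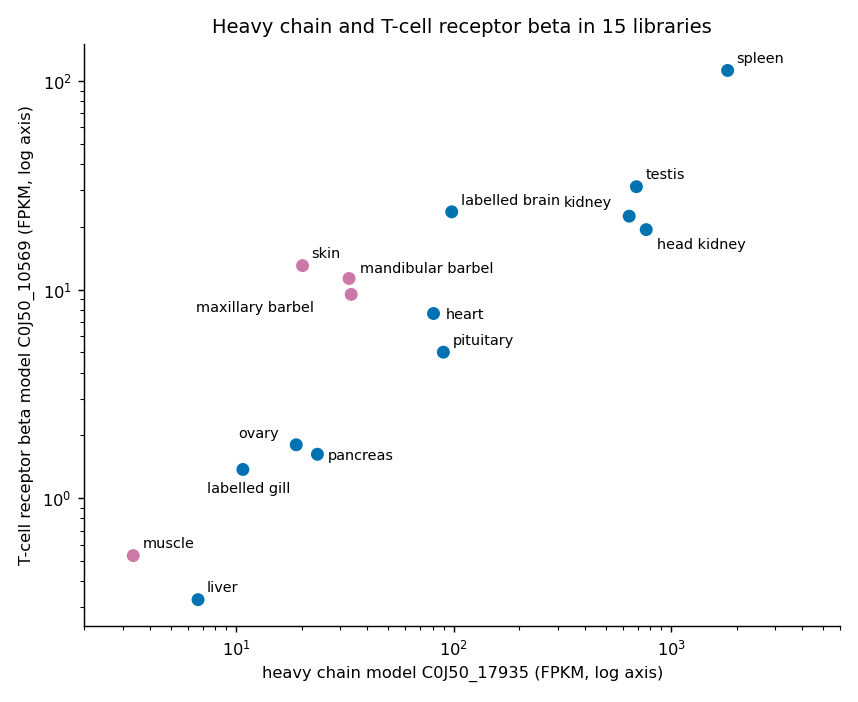
Each point is 1 library, placed by the FPKM of heavy chain model C0J50_17935 and of T-cell receptor beta model C0J50_10569 (both log axes), with the 4 shallower libraries in pink. Skin, both barbels and the brain-labelled library lie above the line of the other libraries, with ratios of heavy chain to T-cell receptor from 1.55 to 4.15.

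One model named as a light chain sits among the T-cell receptor models. C0J50_10567 carries the name of a low-quality immunoglobulin lambda-1 light chain and lies at positions 1298955 to 1299338 of scaffold10507, between the T-cell receptor models C0J50_10566 and C0J50_10568 and on their strand. It had 26.2 FPKM in spleen, 23.8 in the brain-labelled library, 11.6 in testis, 5.41 in kidney, 4.97 in head kidney, 3.30 in pituitary and 4.51 in heart, and below 0.6 in the other 8. Like C0J50_10569, and unlike C0J50_17935, it was higher in the brain-labelled library than in kidney or head kidney. Over all 15 libraries its Spearman correlation was 0.60 with C0J50_10569 and 0.77 with C0J50_17935, and over the 11 deeper libraries it was 0.98 and 0.91, so the order of the pair depended on which libraries were included. It alone made up 29.2% of the variable-only light chain sum in the brain-labelled library, against 0.741% to 5.98% in the other deeper libraries. Without it the ratio of variable to constant light chains there was 0.60 in place of 0.847.

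Genes that act with the receptors were matched by protein name from lists chosen with earlier results of these data known. Of 12 T-cell genes 6 were found, and 5 of these were highest in spleen, where 8.05% of all detected genes peak. CTLA4, an inhibitory receptor of T cells, had 22.9 FPKM in spleen and at most 1.96 (brain-labelled library) elsewhere. The coreceptor CD4 was instead highest in the brain-labelled library (8.44 FPKM, against 2.69 in skin and 2.54 in spleen). The kinases LCK and ZAP70 and the coreceptor CD8A were low, with 3.89, 3.79 and 2.37 FPKM in spleen.

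Of 16 genes listed for B cells 13 were found, and 6 were highest in spleen, where 8.05% of all detected genes peak. POU2AF1, a coactivator of immunoglobulin genes, had 20.8 FPKM in spleen, 7.70 in head kidney, 7.44 in kidney, 4.13 in testis and 1.43 in skin. IRF4, a transcription factor of plasma cells, had 15.9, 4.62, 2.85, 4.02 and 0.554 in the same libraries. CD79B, a signalling chain of the B-cell receptor, had 3.56 in spleen, 2.45 in kidney, 2.18 in head kidney and 0.605 in testis. The kinases BTK and SYK, which myeloid cells also use, were highest in head kidney (45.8 and 89.4 FPKM). PRDM1 and BLK were highest in the brain-labelled library, XBP1 in pancreas (553 FPKM) and EBF1 in the gill-labelled library. PIGR, the polymeric immunoglobulin receptor, was highest in heart (45.5 FPKM). The list is therefore not particular to B cells. In testis, where the heavy chain C0J50_17935 was at 692 FPKM and close to head kidney and kidney, POU2AF1 and CD79B were below both. Over the list, 11 of the 13 genes were lower in testis than in head kidney and kidney, PIGR was higher in testis than in both (22.3 against 12.6 and 9.99), and IRF4 lay between them. The share of all genes lower in testis than in both was not computed, so the 11 have no reference. In testis the myeloid receptor MARCO was at 24.5 FPKM against 189 in head kidney and 105 in kidney. The erythrocyte gene alpha globin had 704 FPKM in testis, 2161 in spleen, 9078 in head kidney and 11440 in kidney. The part of blood and of other cell types in the immunoglobulin levels was not tested.

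Genes of receptor rearrangement differed in level, and RAG1, RAG2 and DNTT were low. RAG1, a subunit of the recombinase that joins receptor segments, was at most 0.336 FPKM (gill-labelled library), with 0.195 in head kidney, 0.229 in kidney and 0.00685 in spleen. Its partner RAG2 was at most 1.01 (ovary) and the polymerase DNTT at most 0.458 (mandibular barbel). The general repair genes DCLRE1C, LIG4 and XRCC4 were highest in ovary (4.38, 15.1 and 40.3 FPKM), and UNG in spleen (1.89). RAG1 and DNTT were thus below 1 FPKM in all 15 libraries.

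MHC class II and the invariant chain had a different order, with the brain-labelled library level with spleen. The invariant chain C0J50_18434 (534 coding bases, positions 64221 to 66665 of scaffold178198) had 1795 FPKM in spleen, 1681 in the brain-labelled library, 917 in testis, 524 in maxillary barbel, 515 in heart, 397 in mandibular barbel, 326 in pituitary and 316 in head kidney. It had 300.1 in kidney, 257 in the gill-labelled library, 242 in muscle, 133 in skin, 74.6 in ovary, 60.6 in pancreas and 33.4 in liver. Spleen and the brain-labelled library thus stood together above the others, and no library was below 33.4 FPKM. The 5 class II chain models summed to 511 FPKM in the brain-labelled library, 493 in spleen, 172 in testis, 141 in maxillary barbel, 115 in heart, 89.5 in mandibular barbel, 80.8 in pituitary and 78.9 in kidney. The sums were 66.5 in muscle, 63.6 in head kidney, 60.8 in skin, 47.4 in the gill-labelled library, 17.7 in pancreas, 10.2 in ovary and 8.56 in liver. The sum followed the invariant chain closely (Spearman 0.97, n = 15 libraries). Head kidney and kidney, which were among the 4 highest libraries for the heavy chain, were here below heart, pituitary and both barbels.

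The beta chain models C0J50_19126 and C0J50_12584 differed in their ratio between the deeper and the shallower libraries. C0J50_19126 (420 coding bases, positions 7700197 to 7700906 of scaffold178206) had 220 FPKM in spleen, 195 in the brain-labelled library, 73.2 in maxillary barbel, 51.0 in testis, 50.8 in mandibular barbel, 43.8 in heart and 42.0 in muscle. It had 35.4 in pituitary, 32.0 in kidney, 24.2 in head kidney, 23.3 in skin, 18.1 in the gill-labelled library, 6.04 in pancreas, 3.88 in ovary and 3.67 in liver. C0J50_12584, a fragment on scaffold58357, had 233 in the brain-labelled library, 186 in spleen, 87.9 in testis and 53.9 in heart, but 12.8 in maxillary barbel, 8.07 in muscle, 4.10 in mandibular barbel and 3.97 in skin. The ratio of C0J50_12584 to C0J50_19126 was 0.688 to 1.73 in the 11 deeper libraries and 0.0807 to 0.192 in the 4 shallower ones, again without overlap. Another beta fragment, C0J50_12961 (270 coding bases on scaffold97434), went the other way: it had 12.9 FPKM in mandibular barbel, 7.39 in maxillary barbel, 7.01 in muscle and 3.02 in skin, 3.0 in pituitary, and was listed at 0 in the other 10. The sources used here do not say which of these fragments belong to 1 gene or how many fish the libraries came from.

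The 2 alpha chain models lie near each other on scaffold178206, as does the beta model C0J50_19126. C0J50_19124 (642 coding bases) had 64.6 FPKM in spleen, 64.5 in the brain-labelled library, 32.1 in maxillary barbel, 27.3 in testis, 21.7 in mandibular barbel, 18.5 in skin and 13.2 in pituitary, and 0.732 (liver) to 11.4 (heart) elsewhere. C0J50_19121 (531 coding bases) had 22.6 in spleen, 18.8 in the brain-labelled library, 16.1 in maxillary barbel and 12.0 in skin, 6.15 in testis, 5.73 in heart, 4.99 in pituitary, 4.59 in head kidney, 4.20 in kidney, 3.03 in muscle and 1.12 in the gill-labelled library. It had 0.587 in pancreas, 0.50 in liver, 0.466 in ovary and 0.0121 in mandibular barbel. Mandibular barbel was therefore the lowest library for one alpha model and the fifth highest for its neighbour. The ratio of C0J50_19121 to C0J50_19124 was 0.225 to 0.733 in the 11 deeper libraries, and 0.000559 in mandibular barbel. The 0.0121 FPKM behind the latter is below the common step of that library (0.117 per kilobase), so the size of that ratio is not resolved.

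CIITA, the class II transactivator (C0J50_17878), was highest in maxillary barbel (16.5 FPKM), skin (15.1) and mandibular barbel (12.0), and had 8.97 in the brain-labelled library, 4.8 in testis, 4.20 in spleen, 3.49 in muscle, 3.44 in the gill-labelled library, 2.65 in pituitary, 2.51 in heart, 2.44 in kidney and 1.90 in head kidney. It was below 0.4 in pancreas, ovary and liver. Its Spearman correlation with the class II chain sum was 0.66 (n = 15), against 0.97 for the invariant chain. RFX1 is a general transcription factor whose name carries MHC class II. Of the 2 models with that name, C0J50_14926 was highest in pituitary (33.5 FPKM, against at most 6.45 in testis). The other was highest in the gill-labelled library. Of 11 class II pathway genes 9 were found, CIITA among them, and 5 were highest in spleen, where 8.05% of all detected genes peak. The lysosomal protease CTSS had 226 FPKM in spleen, 162 in the brain-labelled library and 159 in head kidney, the thiol reductase IFI30 had 325, 165 and 200.5, and CD40, a costimulatory receptor, had 20.7, 10.4 and 15.2 with 16.8 in skin. Of the 5 myeloid genes found, 3 were highest in spleen: MPEG1 had 42.6 FPKM in spleen and 40.6 in the brain-labelled library against 8.69 in head kidney, CSF1R had 73.6, 27.8 and 18.7, and MARCO had 351 in spleen. In maxillary barbel, which had the invariant chain at 524 FPKM, CSF1R was at 1.77 and MPEG1 at 5.22. Of that list SPI1 was highest in kidney (156 FPKM, against 97.2 in spleen) and CD68 was at most 0.0499. The part of myeloid cells in the class II levels was not tested.

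The 32 MHC class I models summed to 859.7 FPKM in the brain-labelled library, 722 in spleen, 539 in heart, 404 in head kidney, 329 in kidney, 284 in testis, 230.2 in the gill-labelled library, 230.1 in pituitary and 155 in liver. The sums were 111 in maxillary barbel, 107 in muscle, 98.2 in pancreas, 91.4 in mandibular barbel, 83.4 in skin and 82.8 in ovary. From highest to lowest this is a far smaller span than that of the immunoglobulins. In liver 11 of the 32 models reached 1 FPKM (41.3% of all genes did), and in the brain-labelled library 27 did (56.3%). The sum of class II chains over that of class I was 1.27 in maxillary barbel, 0.979 in mandibular barbel, 0.729 in skin and 0.622 in muscle. It was 0.682 in spleen, 0.606 in testis and 0.594 in the brain-labelled library, 0.351 in pituitary, and between 0.0552 (liver) and 0.240 (kidney) in the other 7.

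The class I models fell into several patterns. C0J50_09087, named UDA (984 coding bases, positions 737204 to 742288 of scaffold2095), was the highest in 10 of 15 libraries. It had 326 FPKM in the brain-labelled library, 259 in spleen, 196 in heart, 121 in head kidney, 96.8 in kidney, 83.9 in testis, 76.4 in pituitary, 62.3 in the gill-labelled library and 53.5 in liver. It had 35.0 in pancreas, 21.1 in maxillary barbel, 17.5 in muscle, 10.3 in ovary, 8.34 in skin and 4.15 in mandibular barbel, its lowest value. C0J50_08705 and C0J50_08704, of the Z lineage, lie beside each other on scaffold1750, the first with 78.4 FPKM in head kidney, 66.9 in spleen, 65.2 in kidney and 61.5 in the brain-labelled library, and 0.885 to 2.64 in skin and barbels. The 3 Z models together had 91.8 FPKM in spleen and 1.49 in mandibular barbel.

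A second set, 4 of the 29 detected class I models, was highest in skin or a barbel, where 7.83% of all detected genes peak. Over all members it was 6 of 191. C0J50_09094, named UBA (1842 coding bases, positions 852223 to 874357 of scaffold2095, the scaffold of C0J50_09087), had 32.3 FPKM in mandibular barbel, 28.7 in maxillary barbel and 19.6 in skin, then 5.85 in testis and 5.03 in the brain-labelled library, and 0.224 (liver) to 2.44 (pituitary) elsewhere. C0J50_24285 had 12.9, 9.17 and 3.37 FPKM in the same 3 libraries and at most 1.34 in any other. C0J50_07270 had 8.55, 11 and 10.4, with 3.96 in the brain-labelled library and at most 1.22 in the rest. C0J50_22595 had 3.27, 4.07 and 6.33, with 2.42 in the brain-labelled library and at most 0.531 in the rest. These 4 models lie on 4 scaffolds. All 4 were higher in skin and in both barbels than in any of the other 12 libraries. The share of all genes that meet this stricter rule was not computed.

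Another set, 4 of the 29 detected class I models, peaked in the gill-labelled library, where 17% of all detected genes peak. That is no larger a share than among all genes. The immunoglobulin and class II sums were low in this library. C0J50_24298 had 18.5 FPKM there, 8.94 in pituitary, 6.02 in testis and 4.54 in ovary, 1.29 in spleen and 0.351 in the brain-labelled library. C0J50_22597 had 8.93 FPKM in the gill-labelled library and at most 2.10 elsewhere, C0J50_22593 had 6.28 with 4.60 in pituitary, and C0J50_09976 had 4.40 with 1.74 in testis. C0J50_22593 and C0J50_22597 share scaffold178270 with C0J50_22595, which was highest in skin, and C0J50_22595 lies within the span of C0J50_22593 on the opposite strand. The sources used here do not say whether the counting used strand, so the levels of these 2 models are uncertain where they overlap. Muscle and testis shared C0J50_10931, a fragment of 255 coding bases named UEA, with 20.0 FPKM in testis and 12.1 in muscle against at most 3.80 (pituitary) elsewhere.

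A pair of class I fragments were high in most deeper libraries and near 0 in others. C0J50_12650 (named UEA, 258 coding bases, alone on scaffold62784) had 201 FPKM in the brain-labelled library, 128 in spleen, 100.01 in heart, 61.8 in head kidney, 56.7 in kidney, 33.2 in liver, 29.2 in the gill-labelled library, 21 in muscle, 19.9 in pituitary and 14.1 in pancreas. It had 4.33 in ovary, 2.77 in skin, 2.49 in maxillary barbel and 0.00930 in testis, with mandibular barbel listed at 0. Its ratio to C0J50_09087 was 0.260 to 0.620 in 10 deeper libraries and 0.000111 in testis. C0J50_10276 (named UXA2, 285 coding bases, alone on scaffold8051) had 89.2 FPKM in the brain-labelled library, 69.9 in spleen, 67.0 in testis, 54.2 in heart and 32.8 in head kidney, and 0.0136 in muscle while listed at 0 in skin and both barbels. Its ratio to C0J50_09087 was 0.116 to 0.317 in the same 10 libraries, 0.798 in testis and at most 0.000775 in the shallower ones. Testis was thus among the lowest libraries for the first fragment and among the highest for the second. The values of 0.00930 in testis and 0.0136 in muscle lie below the common steps of those libraries (0.0219 and 0.0871 per kilobase). The sizes of the ratios that rest on them are not resolved.

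Wide ranges between libraries were common among the members. Of the 133 models with at least 10 FPKM in some library, 90 were below 0.1 FPKM in another, against 32.6% of all genes at that level. They were 76 light chain, 6 class I, 4 heavy chain, 2 T-cell receptor and 2 class II models. In the 11 deeper libraries alone it was 67 of 128, against 23.8% of all genes. The count does not separate a single model that drops from a class that is low throughout a library. Light chains, for example, summed to only 16.7 FPKM in liver. Members were also shorter than other models (median 372 against 1158 coding bases), so fewer fragments fall on them at a given FPKM. The shares of all genes were not matched for length.

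**Figure D5:**
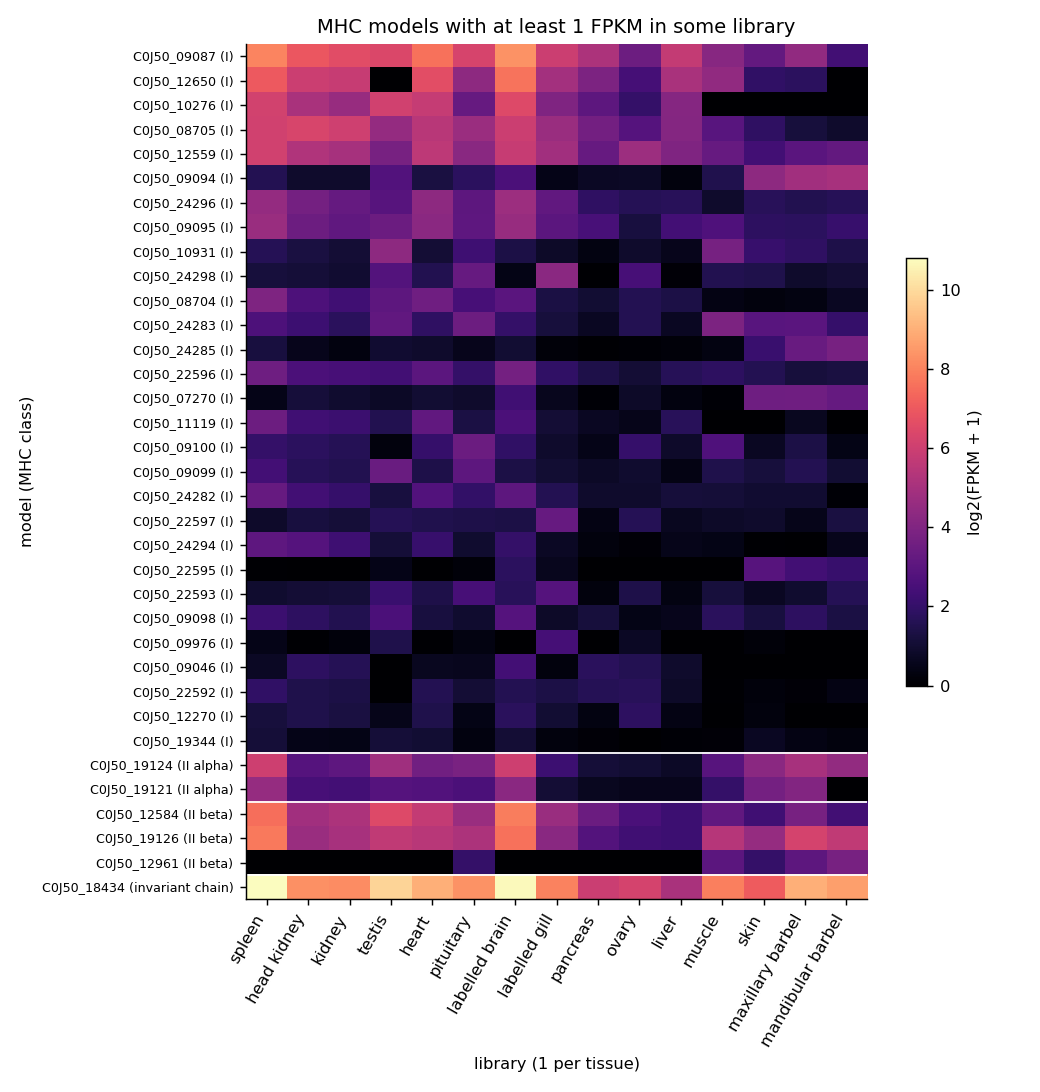
Rows are the class I, class II and invariant chain models with at least 1 FPKM in some library, columns are the 15 libraries and the colour is log2(FPKM + 1). C0J50_09087 and the invariant chain are bright across the deeper libraries, and C0J50_09094, C0J50_24285, C0J50_07270 and C0J50_22595 stand out in skin and barbels. Dark cells include C0J50_12650 in testis and mandibular barbel, and C0J50_19121 in mandibular barbel.

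Of the 15 genes of the class I pathway all were found, and they did not share 1 peak. B2M, the light chain of class I, was matched by 1 model with at most 4.97 FPKM (brain-labelled library) and 4.54 in spleen, far below the class I chains. The immunoproteasome subunits PSMB8, PSMB9 and PSMB10 had 102, 82.3 and 99.0 FPKM in mandibular barbel, 94.4, 79.5 and 83.2 in maxillary barbel, and 107, 59.2 and 51.6 in spleen. In mandibular barbel C0J50_09087 was at 4.15 FPKM and C0J50_09094 at 32.3, so these subunits were near or above their spleen levels in the library where the main class I model was lowest. TAP1 and TAP2, the peptide transporter, and the loading factor TAPBP were highest in testis (9.28, 6.14 and 32.1 FPKM). The chaperones PDIA3 and CALR were highest in liver (597 and 467 FPKM). NLRC5, the class I transactivator, had 11.9 FPKM in spleen, 11 in skin, 10.6 in kidney, 9.11 in heart, 8.04 in maxillary barbel and 1.95 in mandibular barbel.

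The 12 pairs of libraries were compared by a rule of size, a difference of at least 2 in log2(FPKM + 1), which is 4-fold, with at least 5 FPKM in the higher library. A model below 5 FPKM in 1 library of a pair could enter only through the other, and only be called higher there. Between spleen and head kidney 41 of 152 members were higher in spleen (background 6.83% of all genes) and 0 in head kidney (3.49%), with a median difference of 1.75 for the members and -0.18 for all genes. The 41 were 33 light chain, 3 T-cell receptor, 4 class II chain models and the invariant chain, and 0 of 7 heavy chain and 0 of 13 class I models. The largest differences were those of the class II models C0J50_19124 (64.6 against 6.26 FPKM) and C0J50_19126 (220 against 24.2). By class sum, spleen was 7.75 times head kidney for class II chains, 5.63 for T-cell receptors, 3.54 for light chains, 2.38 for heavy chains and 1.79 for class I. Between spleen and kidney 67 of 152 were higher in spleen (7.65%) and 0 in kidney (3.69%), 61 of them light chains. Between kidney and head kidney 0 of 100 members differed (1.55% of all genes, 1.44% higher in kidney and 0.11% in head kidney), with a median difference of -0.25 and a range from -1.61 to 1.18.

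Between spleen and the brain-labelled library 126 of 155 members were higher in spleen (7.29%) and 0 in the brain-labelled library (10.2%). The split followed the class: 117 of 119 light chain, 7 of 7 heavy chain and 2 of 5 T-cell receptor models differed, but 0 of 15 class I, 0 of 4 class II chain models and not the invariant chain. The median difference was 3.94 for light chains, 1.96 for T-cell receptors, 0.09 for class II chains and 0.04 for class I. Most light chain models entered through spleen, since only 45 of 132 reached 1 FPKM in the brain-labelled library. Between spleen and the gill-labelled library 140 of 155 were higher in spleen (14.9%) and 2 in the gill-labelled library (18.6%), the class I models C0J50_24298 and C0J50_22597. The highest light chain model in the gill-labelled library had 2.37 FPKM. All 119 light chain models tested in this pair therefore entered through spleen and could only be higher there. Between the brain-labelled and gill-labelled libraries 14 of 33 were higher in the former (16.6%) and 1, C0J50_24298, in the latter (18.7%). All 4 tested class II chain models, the invariant chain, C0J50_17935 and C0J50_10569 were among the 14. With values rescaled by median ratios or to a common sum, 81.8% and 78.6% of the differing members, in place of 93.3%, were higher in the brain-labelled library.

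Between maxillary and mandibular barbel 2 of 38 members were higher in the maxillary (0.564%) and 3 in the mandibular barbel (0.382%, or 0.946% in either direction). The former were C0J50_19121 (16.1 against 0.0121 FPKM) and C0J50_09087 (21.1 against 4.15), the latter the light chain constant models C0J50_12321 (0.454 against 11.6), C0J50_11631 (3.75 against 29.6) and C0J50_12540 (0.494 against 5.79). Between skin and maxillary barbel 0 of 33 members differed (6.05%), and between skin and mandibular barbel 2 of 36 did (6.23%), C0J50_19121 higher in skin (3.22%) and C0J50_12321 higher in the barbel (3.01%). In both of these C0J50_12321 and C0J50_19121, mandibular barbel was the library that stood off from skin and maxillary barbel.

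Between ovary and testis 98 of 108 members were higher in testis (18.2%) and 0 in ovary (11.8%), with a median difference of -3.50 (ovary minus testis) against 0.33 for all genes. These were all 83 light chain, 2 heavy chain, 3 T-cell receptor and 4 class II chain models tested, the invariant chain and 5 of 12 class I models. The highest model in ovary had 1.98 FPKM among light chains, 1.80 among T-cell receptors and 4.81 among class II chains. All models of these 3 classes that were tested thus entered through testis and could only be higher there. The count and the median partly follow from that. Ovary exceeded testis in the class I model C0J50_12559 (25.9 against 12.8 FPKM), short of the rule. Between heart and muscle 17 of 32 were higher in heart (26.6%) and 3 in muscle (4.96%), namely C0J50_12961 (listed at 0 in heart), C0J50_10931 and C0J50_24283. With median ratios 75% of the differing members, in place of 85%, were higher in heart. Between liver and pancreas 0 of 11 members differed (22.8%).

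The 2 models named minor histocompatibility antigen H13, a signal peptide peptidase rather than an MHC chain, were both highest in pituitary and then liver. C0J50_12149 had 136 FPKM in pituitary, 127 in liver, 92.6 in head kidney and 47.1 in spleen, and C0J50_12150 had 114, 100.6, 71.0 and 33.2. Their ratio was between 0.694 and 0.835 in the 11 deeper libraries and between 0.248 and 0.514 in the shallower ones.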

How the data were processed

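The 15 libraries were prepared, per the labels' protocols, from Trizol-extracted, DNase-treated, poly(A)-selected RNA as paired-end cDNA. The authors deposited FPKM per gene model, and StringTie 1.3.4d is named in the submitters' processing notes. The sources used here do not name the aligner, the genome build or the handling of reads with several matches. Columns sum to 239905 to 738341 FPKM. No counts were given, so no count test and no interval was used.

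Members were found by protein name in the deposited annotation, which lists 25122 loci, 25064 of them with FPKM; variable and constant domains are its V-set and C1-set entries. Positions count from 1 on the annotation's scaffolds. The members, rules and gene lists were chosen with earlier results of these data known. Of 71 list entries 58 matched a protein name; where several models matched, the one with the highest mean was used, so paralog names are uncertain. The values of 2 matched genes of these lists are not reported here. Genes detected at 1 FPKM or more, tissue-enriched genes and pair differences were called by size on log2(FPKM + 1), with a pseudocount of 1. Every member may be named; values in all libraries are given for the 3 models given as marking the set (C0J50_19121, C0J50_12321, C0J50_11631) and for leading models of each class. Other models were named for their pattern after their values were seen. The calling rules were tested on simulated data. Alternatives were another pseudocount, minimum and fold, median-ratio and common-sum rescaling, longer models only and fragment shares. Python 3.11.15, pandas 2.3.3, NumPy 2.4.6, SciPy 1.17.1 and matplotlib 3.10.9 were used.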

Additional observations from a re-analysis of the deposited data

How the results depend on the processing

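For 24 results, 144 alternatives were computed, and 125 left the value within 1.5 times. None was scored as reversed, but most of these results were counts, which have no direction to reverse. The median difference of the members between liver and pancreas did change sign, from 0.60 as reported to -0.15 with median ratios. Median ratios gave 6 members highest in testis (12 as reported), 4 tissue-enriched members (2), 67 differing between spleen and head kidney (41) and 12 between heart and muscle (20). A common sum gave 1 tissue-enriched member and 3 differing between liver and pancreas (0). A pseudocount of 0.1 gave 8 tissue-enriched members, 62 differing between spleen and head kidney, 1 between skin and maxillary barbel (0) and 4 between skin and mandibular barbel (2). Models of at least 300 coding bases gave 1 for the last pair. A 10-fold rule gave 0 tissue-enriched members and 0 differing between spleen and head kidney, 0 between spleen and kidney (67), 5 between the libraries labelled brain and gill (15), 1 between the barbels (5), 1 between skin and mandibular barbel, 62 between ovary and testis (98) and 6 between heart and muscle. The cause was not tested, beyond the stricter fold leaving fewer calls. No paired analysis was possible because each tissue has 1 library. With 1 library per tissue and no stated depth, low values in muscle, skin and barbels are the least certain.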
